A study of Homo sapiens with 8 samples.

Results

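Neuroectoderm differentiation markers were followed at 4 stages of passage of one human embryonic stem cell (hESC) line, as 9 genes of the 60675 in the expression files: PAX6, SOX1, SOX3, SOX11, ZIC1, LHX2, SIX3, NES and MAP2. The genes were chosen by name as markers of early neural tissue, and each symbol matched 1 Ensembl identifier. Of the 9 genes, 6 had enough counts to be tested between lines, while SOX1, LHX2 and SIX3 did not pass the filter on low counts.

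All samples were H9 hESCs (WA09), a line derived from a human blastocyst, kept undifferentiated in mTeSR1 medium on Matrigel without feeder cells and passaged with dispase. The study's list of culture reagents names iPSC-brew and not mTeSR1, so the medium of these samples is uncertain. P1 hESCs were at passage 40s, P2 at passage 100s, P3 at passage 200s and P4 at passage 300s, with 2 samples per line, and P1 and P2 are called early and P3 and P4 late. No treatment or engineered allele separated the lines, and the study describes a copy number gain at 20q11.21 in P3 and P4 hESCs. Polyadenylated RNA of whole cultures was sequenced, so that fewer cells expressing a gene and less RNA per cell cannot be told apart, and the labels do not say whether the samples of a line came from separate cultures, so p-values measure only the spread between these samples.

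Neuroectoderm is the part of the ectoderm that forms the neural plate and later the brain and spinal cord. Human pluripotent cells take this fate when bone morphogenetic protein and NODAL signals are blocked, and PAX6 and SOX1 are then switched on as definitive neural plate markers. NES is less specific and is also known from undifferentiated pluripotent cells, and MAP2 marks neurons that have begun to mature.

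The samples held 26874899 to 38095600 expected counts each, of which 5.89% to 18.5% came from mitochondrial genes. The share was above 17% in P1 replicate 2 (18.5%), P3 replicate 1 (18.4%) and P4 replicate 1 (17.2%) and did not exceed 9.84% in the other samples. All 12 pluripotency markers checked, among them POU5F1 and TDGF1, averaged 1 TPM or more, and their summed level was 3655 to 5347 TPM across samples. Summed markers of mesendoderm were at 3.34 to 7.81 TPM and those of neural crest at 18.4 to 39.7 TPM. Trophectoderm and amnion markers summed to 9.66 to 24.5 TPM (CGA at or under 3 counts in every sample). Surface ectoderm markers summed to 355.9 to 820.5 TPM, led by KRT8 and KRT18, while KRT5 and KRT14 were at or under 3 counts. Fibroblast markers summed to 457.0 to 775.0 TPM, led by THY1 (mean 417.1 TPM) with COL1A1 (86.0 TPM) and COL1A2 (52.2 TPM). COL3A1 and LUM were at or under 3 counts. In RNA of whole cultures, such sums do not show that cells of these types were present. Which cells carried KRT8, KRT18 and THY1 was not tested. Replicates of a line were separate libraries, with a mean chi-square per gene of 21.2 (P2 hESCs) to 167.2 (P3 hESCs) between their counts.

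SOX1, SOX2, SOX3 and SOX11 encode transcription factors that bind DNA through an HMG box. The coding sequence of the same 120-base stretch of this box is shown for SOX3 (chrX:140504413-140504532, minus strand), SOX1 (chr13:112067923-112068042, plus strand) and SOX2 (chr3:181712595-181712714, plus strand) of GRCh38, because sequence shared within a family bears on how reads are assigned to genes. Capitals mark bases that differ from SOX3.
SOX3: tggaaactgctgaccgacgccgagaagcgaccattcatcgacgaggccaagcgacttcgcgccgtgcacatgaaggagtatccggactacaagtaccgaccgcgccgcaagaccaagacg
SOX1: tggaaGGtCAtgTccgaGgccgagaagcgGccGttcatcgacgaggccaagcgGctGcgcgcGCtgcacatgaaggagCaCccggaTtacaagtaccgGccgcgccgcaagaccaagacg
SOX2: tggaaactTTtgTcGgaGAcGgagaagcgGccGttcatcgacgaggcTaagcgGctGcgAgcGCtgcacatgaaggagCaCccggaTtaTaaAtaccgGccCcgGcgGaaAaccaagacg

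SOX1 was 86.67% identical to SOX3 over this stretch, with 16 differing bases, and SOX2 was 79.17% identical with 25. The stretch was chosen as the part of SOX3 most alike to SOX1 and SOX11 together, a choice that favours SOX1 over SOX2. SOX1 and SOX2 also shared a run of 89 identical coding bases just upstream, at chr13:112067827-112067915 in SOX1 and chr3:181712499-181712587 in SOX2, both on the plus strand. The run is printed in lower case throughout, since it holds no differing base.
SOX1 and SOX2: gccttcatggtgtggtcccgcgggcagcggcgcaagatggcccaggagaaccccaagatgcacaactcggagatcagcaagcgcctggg

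Of the 2768 windows of 75 bases in the SOX1 transcript, 15 (0.542%) occurred in another gene, in each case SOX2. No window of this length in the annotated transcripts of the other 8 genes occurred in a transcript of another gene. Windows were compared in the direction of the transcripts only, so overlaps with genes on the other strand were not covered. In coding sequence SOX3 had a longest identical run of 32 bases with SOX1 and of 23 bases with SOX2, and SOX11 had one of 35 bases with SOX12.

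The 9 genes spanned more than 3 orders of magnitude in TPM, a level per transcript length. NES averaged 160.7 TPM, SOX3 10.5 TPM, SOX11 8.80 TPM and MAP2 4.28 TPM, while ZIC1 (0.639 TPM), LHX2 (0.286 TPM), PAX6 (0.271 TPM), SOX1 (0.101 TPM) and SIX3 (0.0975 TPM) averaged under 1 TPM. NES lay above 96.7% of protein-coding genes, SOX3 above 61.8%, SOX11 above 58.7%, MAP2 above 47.7% and PAX6 above 25.2%. The ranges of SOX3 (8.45 to 12.5 TPM) and SOX11 (6.23 to 11.2 TPM) overlapped, as did those of every other pair of neighbours in this order except NES and SOX3. Within each sample, however, SOX11 was above MAP2 and MAP2 was above ZIC1. The same 4 genes were at 1 or more when CPM (counts scaled to library size, with TMM factors) were divided by effective length in kilobases.

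**Figure D1:**
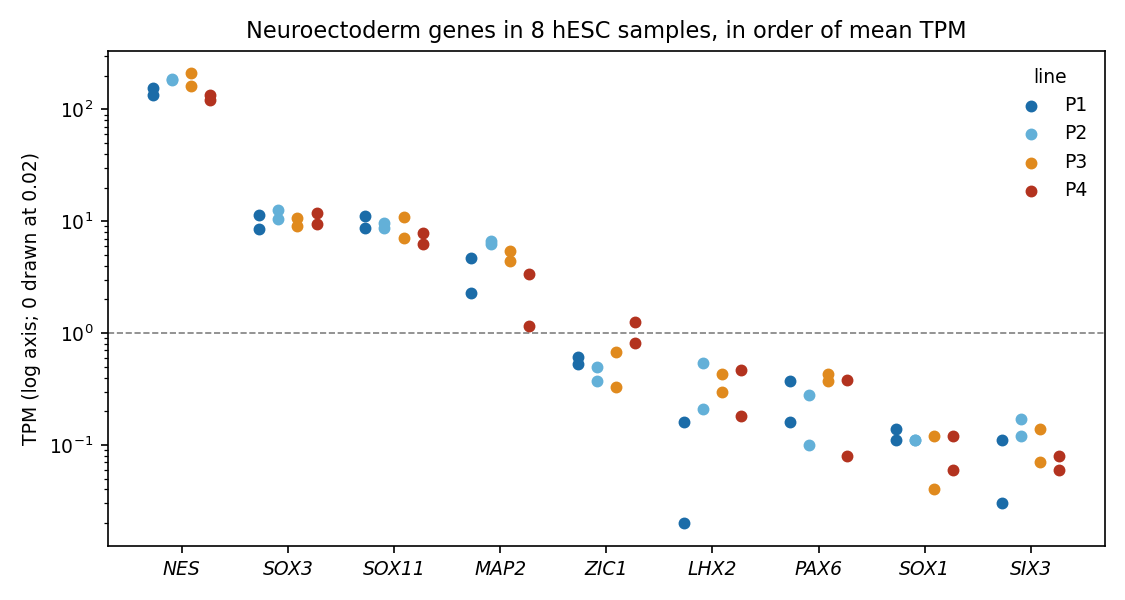
TPM (log axis) of each of the 9 genes in the 8 samples, 2 points per line, with a dashed line at 1 TPM. NES lies between 121.8 and 210.5 TPM in all samples, whereas PAX6, SOX1, LHX2 and SIX3 are below 1 TPM in every sample and the single 0, of LHX2 in P1 replicate 2, is drawn at 0.02.

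No gene of the 9 passed the threshold (absolute log2 fold change above 1 and adjusted p under 0.01 in edgeR's quasi-likelihood test) in late against early hESCs, where 2.2% of the 19499 tested genes did. None passed in the 5 comparisons of single lines either, for which the share among tested genes was 0% for P2 against P1, 3.93% for P3 against P1, 2.11% for P4 against P1, 3.42% for P3 against P2 and 0.815% for P4 against P3, and none passed the test for any difference among the 4 lines, which 4.79% of tested genes passed. At these shares, 0 of 6 genes is close to the background. Before adjustment, 7 of the 42 tests of these genes had a p under 0.05, and all 7 belonged to MAP2, NES and SOX11. Among all tested genes this share was 25.5% for late against early, 9.14% for P2 against P1, 29.5% for P3 against P1, 21.5% for P4 against P1, 29.2% for P3 against P2, 19.2% for P4 against P3 and 31.5% for any difference. In P2 against P1, 1782 tested genes had an unadjusted p under 0.05 and DESeq2 called 40 genes, none of them among the 9.

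**Figure D2:**
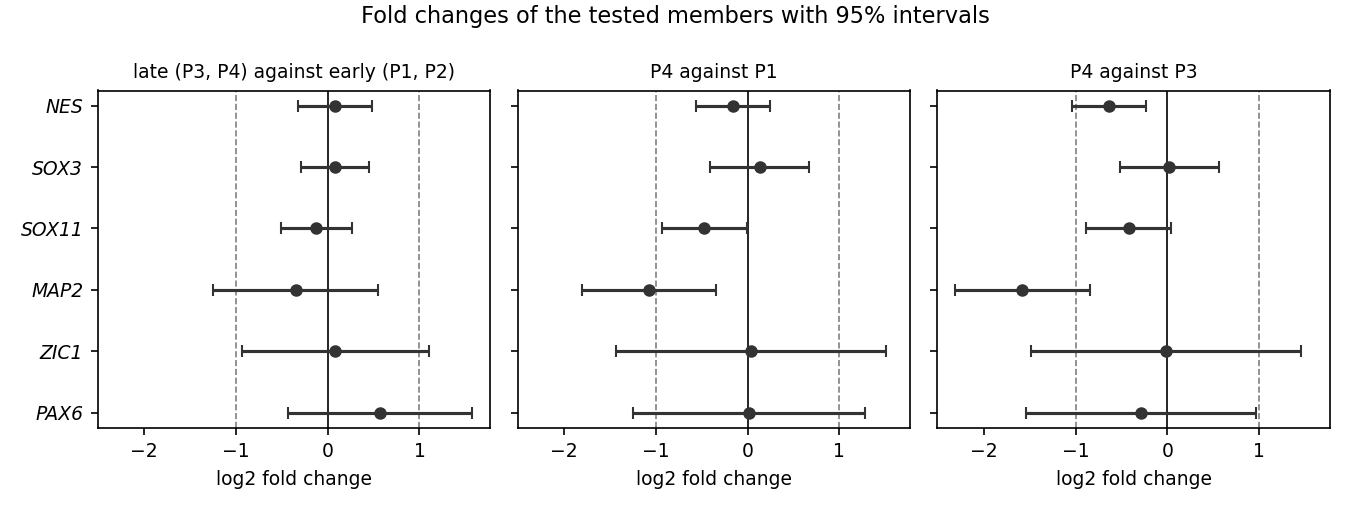
Log2 fold changes (points) with 95% confidence intervals (bars) of the 6 tested genes in 3 comparisons, with dashed lines at a doubling and a halving. Intervals of PAX6 and ZIC1, which have few counts, span more than 2 log2 units in late against early hESCs, whereas the MAP2 interval in P4 against P3 hESCs lies wholly below 0.

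The neural plate transcription factors were the least expressed. PAX6, a paired-box regulator of the neural plate and eye (chr11:31784779-31818062, minus strand), had 35 and 27 counts at P1, 27 and 11 at P2, 42 and 35 at P3 and 43 and 12 at P4. These were 1.00 and 0.851 CPM, 0.657 and 0.308 CPM, 1.33 and 0.976 CPM, and 1.48 and 0.404 CPM in the same order. The lowest value was in a P2 sample and the highest in a P4 sample, and P4 hESCs held both a high and a low sample. The log2 fold change of PAX6 in late against early hESCs was 0.57 (SE 0.46, 95% interval -0.44 to 1.58, adjusted p = 0.465). Its largest estimate, P3 against P2 hESCs, was 1.23 (SE 0.60, interval -0.06 to 2.53, adjusted p = 0.191). With each sample left out, the first ran from 0.32 (without P2 replicate 2) to 0.84 (without P4 replicate 2) and the second from 0.80 (without P2 replicate 2) to 1.89 (without P2 replicate 1).

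SOX1, an HMG-box factor and one of the earliest neural plate markers, had 8 and 11 counts at P1, 9 and 8 at P2, 11 and 3 at P3 and 9 and 4 at P4. Summed over the 8 samples, 63 counts gave 0.233 CPM of the raw totals (exact Poisson 95% interval 0.179 to 0.299 CPM, which covers counting error only). SOX2, with which SOX1 shares the 89-base run above, had 6448 to 12680 counts per sample. The expected counts of SOX1 and of SOX2 were whole numbers in all 8 samples, and the assignment of reads within the shared run was not tested. Mean TPM was 0.118 in early and 0.085 in late hESCs, a difference of -0.04 in log2(TPM + 1) (two-sided exact permutation test, 4 samples against 4, p = 0.286, where the smallest possible is 0.0286).

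SIX3, a homeodomain factor of the anterior neural plate and eye field (chr2:44941898-44946077, plus strand), had 2 and 8 counts at P1, 9 and 11 at P2, 6 and 9 at P3 and 5 and 3 at P4. LHX2, a LIM-homeodomain factor of eye field and forebrain (chr9:124001670-124033301, plus strand), had 5 and 0, 10 and 8, 7 and 9, and 6 and 9 counts in the same lines. The single 0, in P1 replicate 2, allows up to 3 counts or 0.0945 CPM in that sample. The groups overlapped for both genes: the difference in log2(TPM + 1) between late and early hESCs (late minus early) was -0.03 for SIX3 (exact permutation p = 0.629) and 0.14 for LHX2 (exact permutation p = 0.4). With a pseudocount of 0.1, which shrinks low values less, the differences were -0.12 for SIX3 (exact permutation p = 0.657), 0.68 for LHX2 (exact permutation p = 0.343) and -0.26 for SOX1 (exact permutation p = 0.286).

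ZIC1, a zinc-finger factor of the dorsal neural plate and neural crest (chr3:147393422-147510293, plus strand), had 14 and 20 counts at P1, 25 and 13 at P2, 28 and 7 at P3 and 18 and 13 at P4. Both extremes lay in P3 hESCs, at 0.885 and 0.195 CPM. The log2 fold change in late against early hESCs was 0.08 (SE 0.46, interval -0.93 to 1.10, adjusted p = 0.930), an interval that includes a doubling. On the TPM scale P4 replicate 2 was highest, at 1.27 TPM, although its 0.437 CPM was below that of several other samples. The effective length that RSEM assigned to ZIC1 was 432 bases in that sample and up to 2144 bases elsewhere, and it also varied for PAX6 (2854 to 6506 bases), LHX2 (461 to 1518) and MAP2 (2343 to 3453). Exons of PAX6 overlap those of ELP4 and PAUPAR on the other strand, exons of ZIC1 overlap those of ZIC4 and exons of LHX2 those of AC006450.2, also on the other strand, and exons of SOX11 overlap those of AC108025.2 on the same strand. Whether counting used the strand is not given in the sources used here.

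The SOX factors at higher levels, SOX3 and SOX11, did not pass the test in any comparison. SOX3, a partner of SOX2 in the SOXB1 group with roles in progenitor maintenance, was at 21.1 and 18.5 CPM at P1, 18.8 and 23.2 at P2, 23.5 and 19.3 at P3 and 26.3 and 17.2 at P4. The lowest and the highest sample were both P4 hESCs. The log2 fold change in late against early hESCs was 0.08 (SE 0.17, interval -0.29 to 0.45, adjusted p = 0.802), an interval that does not reach a doubling or a halving, and its sign was negative on the TPM scale.

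SOX11, a SOXC factor of progenitors and young neurons, was at 76.2 and 70.4 CPM at P1, 64.0 and 58.8 at P2, 67.9 and 73.7 at P3 and 63.5 and 42.3 at P4. The lowest sample was P4 replicate 2, whereas the other P4 sample lay among those of P2 hESCs. The log2 fold change was -0.12 in late against early hESCs (SE 0.18, interval -0.51 to 0.26, adjusted p = 0.701). In P4 against P1 hESCs it was -0.47 (SE 0.21, interval -0.93 to -0.01, adjusted p = 0.224), and it ranged from -0.80 to -0.21 when each sample was left out, with -0.21 when P4 replicate 2 was left out.

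NES encodes nestin, an intermediate filament of neural progenitors that undifferentiated hESCs also carry (chr1:156668763-156677397, minus strand). Its level was 660.0 and 675.6 CPM at P1, 762.6 and 792.6 at P2, 971.8 and 887.9 at P3 and 624.3 and 574.2 at P4. In CPM, P3 samples were the 2 highest and P4 samples the 2 lowest of the 8, with no overlap between lines. In TPM the lines overlapped. There P3 replicate 1 (161.3 TPM) lay below both P2 samples (184.3 and 185.1 TPM), and P4 replicate 2 lay above P1 replicate 2. Line means were 667.8 ± 11.0, 777.6 ± 21.3, 929.8 ± 59.3 and 599.2 ± 35.4 CPM (SD, n = 2 each) from P1 to P4 hESCs. The log2 fold change was 0.48 in P3 against P1 hESCs (SE 0.19, interval 0.07 to 0.88, adjusted p = 0.110) and -0.63 in P4 against P3 hESCs (SE 0.19, interval -1.04 to -0.23, adjusted p = 0.0889). Because P3 and P4 hESCs lay on either side of the earlier lines, the fold change of the late pair against the early pair was 0.08 (SE 0.18, interval -0.32 to 0.48, adjusted p = 0.817), and it was negative on the TPM scale.

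MAP2, a microtubule-associated protein of neuronal dendrites (chr2:209424058-209734118, plus strand), was the gene with the widest spread among those at 1 TPM or more. It was at 12.9 and 7.37 CPM at P1, 14.1 and 14.5 at P2, 14.4 and 14.4 at P3 and 3.33 and 6.29 at P4. In CPM, P4 samples were the 2 lowest, the lower P1 sample came next, and P2 and P3 samples lay close together. The counts behind these values were 97 and 187 in P4 hESCs and 234 to 581 in the other lines. In P4 against P3 hESCs the log2 fold change was -1.58 (SE 0.34, interval -2.31 to -0.85, adjusted p = 0.0254), a fold of 0.335 (0.201 to 0.556), which missed the adjusted p threshold of 0.01. In P4 against P1 hESCs it was -1.08 (SE 0.34, interval -1.81 to -0.35, adjusted p = 0.0820), which ranged from -1.61 to -0.62 when each sample was left out, with -0.62 when P1 replicate 1 was left out.

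The MAP2 difference between P4 and P3 hESCs passed both thresholds with DESeq2 (log2 fold change -1.59, adjusted p = 1.8e-04) and in edgeR without the filter on low counts (-1.58, adjusted p = 2.1e-05), and the adjusted p over all alternatives ran from 2.1e-05 to 0.382, the highest of them on the log2(TPM + 1) scale (-0.94). At an adjusted p under 0.05 with no fold minimum, MAP2 passed in P4 against P3 hESCs, as did 3.31% of tested genes, and for any difference among lines (adjusted p = 0.0260), as did 13.1%. Mitochondrial share differed between P4 samples, at 17.2% for the one with 3.33 CPM and 5.89% for the one with 6.29 CPM. Among the samples above 17% MAP2 was 3.33 CPM in P4, 7.37 in P1 and 14.4 in P3 hESCs, and among those under 10% it was 6.29 CPM in P4 hESCs and 12.9 to 14.5 in the others. Each set held 1 P4 sample, which was the lowest of its set, and the part of the mitochondrial share in the difference was not tested.

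Of the 6 tested genes, MAP2 and NES had both P4 samples below all 6 other samples in CPM. This pattern was found in 5.52% of tested genes. In TPM it did not hold, since P4 replicate 2 lay above P1 replicate 2 for both genes. The values were 3.36 and 2.28 TPM for MAP2, and 135.0 and 133.5 TPM for NES. No gene of the 6 had its 4 P3 and P4 samples apart from its 4 P1 and P2 samples, a pattern found in 17.6% of tested genes. MAP2 in late against early hESCs gave a log2 fold change of -0.35 (SE 0.41, interval -1.25 to 0.55, adjusted p = 0.630), with P3 samples as high as those of P2 hESCs. It ran from -0.61 without P3 replicate 1 to -0.07 without P4 replicate 1.

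**Figure D3:**
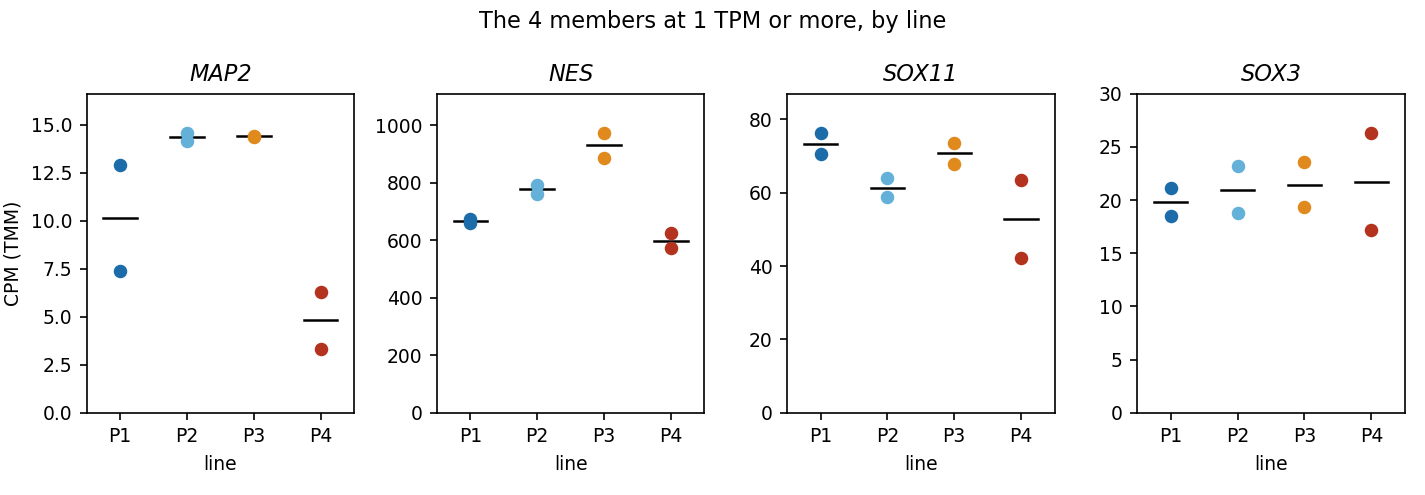
TMM-normalised CPM of MAP2, NES, SOX11 and SOX3 in each sample (points) with the mean of each line (bars), axes starting at 0. Both P4 points are the lowest for MAP2 (3.33 and 6.29 CPM) and for NES (624.3 and 574.2 CPM), whereas the P4 points of SOX3 (26.3 and 17.2 CPM) enclose those of all other lines.

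Genes with the profile most like each tested gene were found by the root mean square difference of centred log2(CPM + 0.5) over the 8 samples, among 15307 genes. For MAP2, whose spread around its mean was 0.691, it was PKNOX2 at 0.202. For NES, with a spread of 0.243, it was DCTPP1 at 0.0619. Each value is the smallest of many differences over 8 samples, so a small one follows from the search and is no measure of shared regulation. SOX3 was nearest to COX5A (0.0624) and SOX11 to PRKAR2B (0.0675). ZNF480 was nearest to PAX6 (0.118) and SLC35B2 to ZIC1 (0.108), where both PAX6 and ZIC1 had few counts.

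Of the 9 genes, 7 had promoters in the RefSeq table (GRCh38.p14), and SOX11 and SIX3 did not. CpG dinucleotides, written CG, were counted in the 250 bases before each start, where the median of 35116 promoters was 11 and 93.9% held at least 1. SOX1, at 0.101 TPM, had 31 CpG, more than 89.2% of promoters, LHX2 had 25, ZIC1 23, and SOX3, at 10.5 TPM, had 17, while NES, at 160.7 TPM, had 8. The 9 starts of PAX6 had 3 to 28 CpG and the 3 of MAP2 had 4 to 8. The promoters of SOX1 and SOX3, close relatives with unequal levels, are shown, SOX1 at chr13:112066899-112067148 (plus strand) and SOX3 at chrX:140505070-140505319 (minus strand), with each CG in capitals, as a description that no measurement of methylation or binding accompanies.
SOX1: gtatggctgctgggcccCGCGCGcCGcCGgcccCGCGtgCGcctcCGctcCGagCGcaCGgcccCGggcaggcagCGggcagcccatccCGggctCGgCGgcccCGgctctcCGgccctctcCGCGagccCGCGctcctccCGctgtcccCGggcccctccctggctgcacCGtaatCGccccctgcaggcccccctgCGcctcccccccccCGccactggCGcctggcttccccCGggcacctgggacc
SOX3: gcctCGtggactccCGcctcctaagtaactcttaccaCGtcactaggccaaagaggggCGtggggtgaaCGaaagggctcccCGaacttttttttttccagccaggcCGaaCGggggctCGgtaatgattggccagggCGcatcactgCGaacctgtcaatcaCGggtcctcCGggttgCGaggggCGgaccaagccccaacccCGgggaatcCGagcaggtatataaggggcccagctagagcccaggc

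Some paralogs were higher than the genes themselves and others lower. ZIC2, at 29.5 to 93.5 TPM, and ZIC5, at 9.83 to 31.5 TPM, exceeded ZIC1 (0.33 to 1.27 TPM) in every sample, and SOX2 (119.0 to 191.0 TPM) exceeded SOX1 and SOX3. SIX4 (7.16 to 18.1 TPM) and SIX5 (4.46 to 16.9 TPM) likewise exceeded SIX3 (0.03 to 0.17 TPM), while SIX6 was at 0.1 TPM or less. In mean TPM, PAX2, PAX3, PAX4, PAX5, PAX7 and PAX8 (0.0488 to 0.181 TPM) were below PAX6 (0.271 TPM), ZIC4 (0.136 TPM) was below ZIC1, LHX9 (0.0112 TPM) was below LHX2, MAPT (1.66 TPM) was below MAP2, and VIM (93.7 TPM) and INA (7.21 TPM) were below NES, whereas MAP4 (59.1 TPM) was above MAP2.

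**Figure D4:**
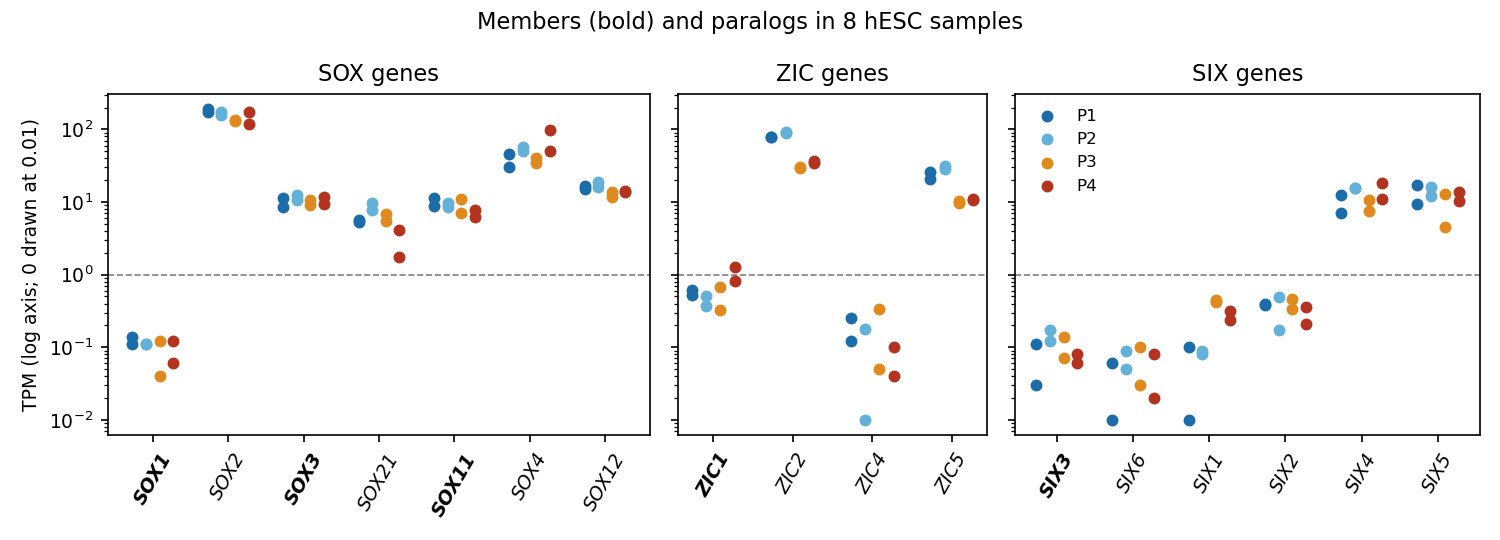
TPM (log axis) of selected SOX genes, ZIC genes and relatives of SIX3 in the 8 samples, 2 points per line, with the genes described here in bold and zeros drawn at 0.01. ZIC2 and ZIC5 points of late hESCs lie below those of early hESCs, whereas ZIC1 stays between 0.33 and 1.27 TPM in all lines.

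Of the 25 paralogs, 19 were tested and 2 fell in late against early hESCs, both of them ZIC genes, with no rise, where 1.14% of tested genes fell and 1.06% rose. ZIC2, a zinc-finger factor of neural plate and pluripotent cells, was at 132.1, 139.9, 141.0 and 141.0 CPM in early hESCs and at 74.6, 55.6, 75.7 and 53.3 CPM in late hESCs. The groups did not overlap, and the log2 fold change was -1.10 (SE 0.15, adjusted p = 0.00148). ZIC5, its neighbour on chromosome 13, was at 93.0, 86.0, 107.9 and 102.7 CPM and then at 51.7, 34.4, 46.1 and 37.9 CPM (log2 fold change -1.20, SE 0.16, adjusted p = 0.00126). ZIC1 had a log2 fold change of 0.08 with an interval of -0.93 to 1.10, and the difference between paralogs was not tested. The median log2 fold change was -0.02 over the tested paralogs, 0.08 over the 6 tested neuroectoderm genes and 0.01 over all tested genes.

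Of 30 neural plate and forebrain factors, 20 were tested, and ZIC2, ZIC5 and FEZF1 fell while none rose (median -0.13). Among all tested genes, 1.14% fell and 1.06% rose. FEZF1, a zinc-finger repressor of the forebrain, was at 14.6, 19.3, 13.3 and 16.3 CPM in early hESCs and at 4.17, 1.25, 1.89 and 0.673 CPM in late hESCs, with a log2 fold change of -2.99 (SE 0.45, adjusted p = 0.00257). Its late and early samples did not overlap. Without P4 replicate 1 the adjusted p of FEZF1 was 0.0111.

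Of 18 midbrain, hindbrain and spinal cord factors, 9 were tested and none passed (median 0.07). The most abundant were EGR2 (mean 6.39 TPM, log2 fold change -2.07, adjusted p = 0.0234) and GBX2 (2.74 TPM, -0.07, adjusted p = 0.943). Of 32 neural progenitor and neuronal genes, 27 were tested and none passed (median 0.28). DPYSL3 (mean 164.0 TPM), TUBB3 (134.5 TPM) and CRMP1 (72.9 TPM) were the most abundant, with log2 fold changes of -0.51 (adjusted p = 0.0512), 0.28 (adjusted p = 0.395) and 0.35 (adjusted p = 0.216). The mean levels of DPYSL3 and TUBB3, which encode a collapsin response mediator and a neuronal tubulin, lay within the range of NES over samples (121.8 to 210.5 TPM).

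Of 30 neural induction signals and inhibitors, 26 were tested, of which 3 rose and 1 fell in late against early hESCs (median 0.08). Over all tested genes, 1.06% rose and 1.14% fell. NODAL, which holds back neural fate, rose by 3.15 on the log2 scale (SE 0.43, adjusted p = 0.00154). LEFTY1 rose by 3.17 (SE 0.47, adjusted p = 0.00246) and LEFTY2 by 2.49 (SE 0.37, adjusted p = 0.00246), both inhibitors and targets of NODAL. BMP2, a ligand that also opposes neural fate, fell by 2.34 (SE 0.31, adjusted p = 0.00119). Without P2 replicate 2, LEFTY1 and LEFTY2 had adjusted p = 0.0115 and 0.0117. These changes stood beside log2 fold changes of -0.35 to 0.57 among the 6 tested neuroectoderm genes.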

How the data were processed

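RNA-seq of 8 samples of H9 hESCs (P1 to P4, 2 each) was analysed. Per the labels and the submitters' processing notes, the authors made strand-specific mRNA libraries and used FastQC, Trim Galore, STAR 2.7.3a and RSEM 1.3.3 on GRCh38. The annotation release and use of strand in counting are not given in the sources used here. The authors deposited, per gene and sample, RSEM expected counts (not normalized) and TPM (scaled per effective length and to a fixed total). FPKM values were deposited too and not used.

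Expected counts were rounded and tested in R 4.3.3 with edgeR 4.0.16 (quasi-likelihood test, TMM, filterByExpr by line, Benjamini-Hochberg over 19499 genes). A gene was called at an absolute log2 fold change above 1 and FDR under 0.01, the thresholds of the study. P3 and P4 were compared with P1 and P2 in a model of 2 groups of 4, and single lines in a model of 4 groups of 2. Members under the filter were compared by exact permutation of log2(TPM + 1). Each group of 4 held 2 samples of each of 2 lines. The model of 2 groups and the permutation treated these 4 as independent samples, although samples of a line may be more alike. DESeq2 1.42.0 and limma 3.58.1 were alternatives. Symbols matched 56558 identifiers. Positions came from GENCODE on GRCh38 and promoters from RefSeq. CPM used TMM factors unless raw totals are named, and 3 counts were 0.0730 to 0.103 CPM.

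The members and lists were chosen with earlier results of these data known. From each list the text names genes called in P3 and P4 against P1 and P2, at most 6, or else the 3 of highest TPM, and for each tested member the gene of nearest profile among those at a mean of 1 CPM or more. SOX2 and the other paralogs that were not called were named for their families, and abundant markers of other cell types for their levels, after their values were seen, and the separate results of some genes and sequences are not reported here. Methods were tested on simulated data. The replicate numbers of the labels were not taken to pair the samples, since correlations of replicate differences between lines ran from -0.119 to 0.178.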

Additional observations from a re-analysis of the deposited data

Results flagged for a closer look

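Each gene under the naming rule was checked for a sample far from the other 3 of its group of 4 (P1 and P2, or P3 and P4 hESCs). The ratio was the gap to the nearest sample over the whole range, in log2(CPM + 0.5), against Dixon's critical value of 0.829. Of 44 groups checked, 3 were beyond it. Chance gives about 2.2 if the 4 samples of a group come from the same population, whereas each group joins 2 lines. For SOX1, P1 replicate 2 was at 0.347 CPM and the others at 0.219 to 0.229 CPM, a ratio of 0.915, on 8 to 11 counts per sample. For ZIC2, P1 replicate 1 was at 132.1 CPM and the others at 139.9 to 141.0 CPM, a ratio of 0.883. For DPYSL3, P1 replicate 2 was at 682.5 CPM and no other under 826.4 CPM, a ratio of 0.984. P1 replicate 2 was also the sample with the highest mitochondrial share, 18.5%, and whether this share has a part in its values was not tested.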

How the results depend on the processing

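The number of the 9 genes that passed stayed at 0 in P3 and P4 against P1 and P2, and in P2 against P1, P3 against P1, P4 against P1 and P3 against P2 hESCs, under every alternative run, and was 0 to 0 in all comparisons when each sample was left out. It was 1 (MAP2) in P4 against P3 hESCs, and 1 (MAP2) for any difference among lines, with DESeq2, without the filter on low counts, and at an adjusted p under 0.05 without a fold minimum, and the cause was not tested. For P4 against P3, DESeq2 called 600 genes in all and the unfiltered fit 900, against 159.

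Some small fold changes changed sign. On log2(TPM + 1) and log2(TPM + 0.1) in limma, SOX3 gave -0.0576 and -0.0619, NES -0.0823 and -0.0828, and MAP2 in P3 against P2 hESCs -0.34 and -0.39, with -0.00194 from the 4 samples of those lines alone. With each sample left out, the fold change of P3 and P4 against P1 and P2 ran from -0.0275 to 0.18 for SOX3, -0.22 to 0.0216 for SOX11, -0.28 to 0.37 for ZIC1, -0.0554 to 0.20 for NES and -0.49 to 0.23 for GBX2, and that of MAP2 in P3 against P2 from -0.0154 to 0.0243. MAP2 in P4 against P3 kept its sign, from -2.11 to -1.19.

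The samples share only a replicate number. With the replicate number as a block, 0 of the 9 genes passed in any comparison, ZIC1 gave -0.0100, and the count over all genes in P3 and P4 against P1 and P2 went from 429 to 343. EGR2 passed with the block (-2.34, adjusted p = 0.00949). Of 255 values of single fold changes of the 9 genes under alternatives, 236 kept their direction and their side of the threshold. For PAX6, ZIC1, SOX1, LHX2 and SIX3, depth limits what can be seen: 54 counts of LHX2 over all samples gave 0.200 CPM of the raw totals (exact Poisson 95% interval 0.150 to 0.261).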
